A study of Mus musculus with 4 samples.

Results

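The nuclear genes of oxidative phosphorylation were followed in stromal cells of mouse bone marrow that descend from different fetal sources. Members were all rows of the raw count table whose symbol begins with Nduf and a subunit letter and digit, is Sdha, Sdhb, Sdhc or Sdhd, or begins with Uqcr, Cox4 to Cox8 or Atp5. This gave 82 of 17230 rows, with 37 named for complex I, 4 for complex II, 8 for complex III, 16 for complex IV and 17 for complex V. The rule uses names and no measured value.

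In the respiratory chain, complexes I and II pass electrons from NADH and succinate to ubiquinone, complex III passes them on to cytochrome c, and complex IV hands them to oxygen. Complexes I, III and IV pump protons across the inner mitochondrial membrane, and complex V, the ATP synthase, lets them flow back to make ATP. The mitochondrial genome encodes the proteins at the heart of the proton pumps, while complex II and most other subunits come from nuclear genes such as those described here. Several small subunits of complex IV exist in a ubiquitous form and a tissue form, the tissue forms being known from heart and skeletal muscle, lung or testis.

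The libraries were bulk RNA-seq of sorted cells of mouse femurs at postnatal day 21, all given tamoxifen at embryonic day 12.5. Hes1-derived cells (2 libraries, replicates 1 and 3) came from Cxcl12(GFP/+); Hes1(CreER/+); R26R(tdTomato/+) mice, in which the inducible recombinase marks fetal cells with Hes1 activity and their descendants. Fgfr3-derived cells (2 libraries, replicates 2 and 3) came from Cxcl12(GFP/+); Fgfr3-iCreER; R26R(tdTomato/+) mice, which mark descendants of fetal cells with Fgfr3 activity. Both groups carry the Cxcl12 GFP reporter allele and the tdTomato reporter, and the groups also differ in the CreER allele itself. The cell type label names CAR cells, the CXCL12-abundant reticular stroma, sorted for GFP and tdTomato together, whereas the extraction text names a sort for tdTomato and a droplet single-cell loading. With 1 column of counts a library, the values were treated as bulk. The labels do not say whether a library is an animal or a pool, so the p-values measure only the spread between these samples.

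Total counts were 22745128 and 23625327 in Hes1-derived libraries, against 26025607 and 26804832 in Fgfr3-derived libraries. Of the 14330 genes tested, 751 were higher in Hes1-derived libraries (5.24%) and 940 were lower (6.56%) at adjusted p under 0.05 in edgeR's quasi-likelihood test. All 14 reticular stroma markers were detected. They summed to 12010 and 7651 CPM, the reads of a gene scaled to library size, in Hes1-derived libraries and to 18340 and 12300 CPM in Fgfr3-derived libraries, and 2 of the 14 were lower. Of 12 pan-leukocyte markers, 8 were higher in Hes1-derived libraries, with sums of 6362 and 7543 CPM against 1818 and 3945 CPM. B lymphocyte markers (11 of 12 higher) summed to 2813 and 2726 CPM in Hes1-derived libraries, against 701 and 792 CPM. Erythroid markers (9 of 10 higher) summed to 11360 and 7153 CPM, against 1996 and 3009 CPM in Fgfr3-derived libraries. Neutrophil markers (1 of 12 higher) summed to 27380 and 32240 CPM, against 8880 and 21940 CPM. Of 10 osteoblast markers, 8 were lower, with sums of 5701 and 5565 CPM in Hes1-derived libraries, against 29150 and 34850 CPM in Fgfr3-derived libraries. Of 12 cell cycle markers, 7 were higher and all 12 had a positive fold change, with sums of 2990 and 3189 CPM in Hes1-derived libraries, against 1400 and 1666 CPM in Fgfr3-derived libraries. Endothelial markers (1 of 8 higher, 7 of 8 positive) summed to 108 and 116 CPM, against 38.3 and 54.9 CPM in Fgfr3-derived libraries. No marker of these lists had 0 reads in any library. Most markers of leukocytes, B lymphocytes, erythroid cells, dividing cells and osteoblasts were called, whereas few neutrophil, endothelial and stroma markers were. Both Hes1-derived libraries lay above both Fgfr3-derived libraries for 10 of 12 neutrophil and 6 of 8 endothelial markers, beside 29.8% of all genes. Of the 14 stroma markers, 6 lay below, beside 32.1% of all genes, and 8 overlapped. The part of these markers in the differences that follow was not tested.

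Of the 82 members, 80 passed the filter on low counts and were tested. Cox7b and Atp5sl were higher in Hes1-derived libraries, against 0 were lower, against the 5.24% and 6.56% of all genes called higher and lower. At an unadjusted p under 0.05 there were 8 members higher and 1 lower, beside 13.7% and 16.3% of all genes. DESeq2 called 4 members higher, adding Cox6a2 and Cox6b2, and 1 lower, Cox4i2, where it called 9.97% of all genes higher and 10.9% lower. limma-voom called 3 members higher and 0 lower, beside 6.23% and 7.33% of all genes, and limma-trend likewise 3 and 0, beside 5.79% and 6.59%. The share of members called was thus no larger than the share of all genes in either direction by edgeR or DESeq2. A p that misses the threshold does not show that a member is equal in both groups: the median standard error of a member's log2 fold change was 0.22.

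The fold changes were small and mostly of the same sign. The median log2 fold change of the tested members, Hes1-derived minus Fgfr3-derived, was 0.28, beside −0.02 over all genes tested, and 64 were positive and 16 negative. Of the 80, 70 lay within 0.5 of 0 on the log2 scale, and the extremes were −1.59 for Cox4i2 and 1.87 for Cox6a2. Both Hes1-derived libraries lay above both Fgfr3-derived libraries for 49 of the 80 members, whereas 29.8% of all genes did so. For 2 members both lay below, against 32.1% of all genes, and for 29 the groups overlapped. By complex the median was 0.26 for complex I, 0.13 for complex II, 0.31 for complex III, 0.45 for complex IV and 0.32 for complex V (on the deposited regularized log2 scale the median difference of all members was 0.23).

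**Figure D1:**
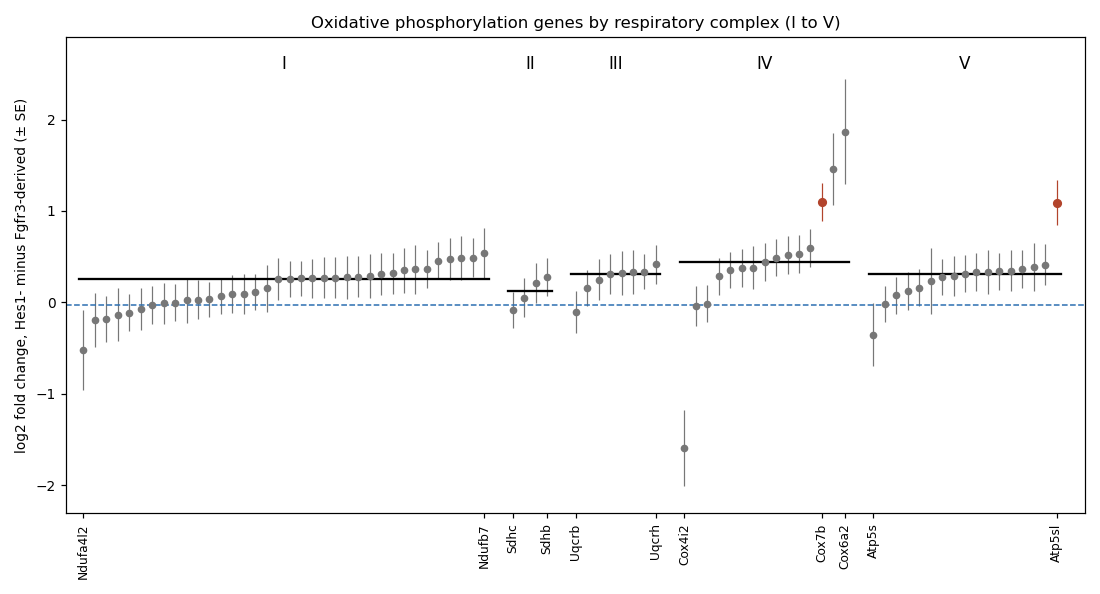
Fitted log2 fold change, Hes1-derived minus Fgfr3-derived, with its standard error for each of the 80 tested members, ordered within complexes I to V, with names for the lowest, the highest and the called members of each; black lines are the medians of each complex and the dashed line the median of all genes tested (−0.02). Red marks the members past an adjusted p of 0.05, Cox7b and Atp5sl; most others lie between 0 and 0.5, and complex IV holds the widest spread, with Cox4i2 at −1.59 and Cox6a2 at 1.87.

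Summed over all 82 rows, the members had 9378 and 9095 CPM in Hes1-derived libraries, against 7239 and 7975 CPM in Fgfr3-derived libraries, a ratio of means of 1.21. As shares of all reads these were 0.937% and 0.955% against 0.705% and 0.778%. The sums of the groups did not overlap, and Fgfr3-derived replicate 2 was the lowest library. In bulk samples, fewer cells of a type and less RNA per cell cannot be told apart. Fgfr3-derived replicate 2 was the lowest of the 4 libraries for 57 of the 80 tested members (71.2%), against 30.9% of all genes tested. The median deviation of the members from their own mean over the 4 libraries was 0.14 in Hes1-derived replicate 1 and 0.13 in replicate 3 on the log2 scale, against −0.23 in Fgfr3-derived replicate 2 and −0.04 in replicate 3. The Fgfr3-derived libraries differed from each other by a median of 0.20 (replicate 3 minus replicate 2), which is larger than the median of 0.17 by which the mean of the Hes1-derived libraries exceeded Fgfr3-derived replicate 3. Without Fgfr3-derived replicate 2 the members' median fold change was 0.18, beside 0.03 over all genes, and without Fgfr3-derived replicate 3 it was 0.42, beside 0.02. The pan-leukocyte sum, 6362 and 7543 CPM in Hes1-derived libraries against 1818 and 3945 CPM, was also lowest in Fgfr3-derived replicate 2. So were the sums of the B lymphocyte, erythroid, neutrophil, cell cycle and endothelial markers. The osteoblast and reticular stroma sums were not lowest there. A link between any of these sums and the members was not tested.

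**Figure D2:**
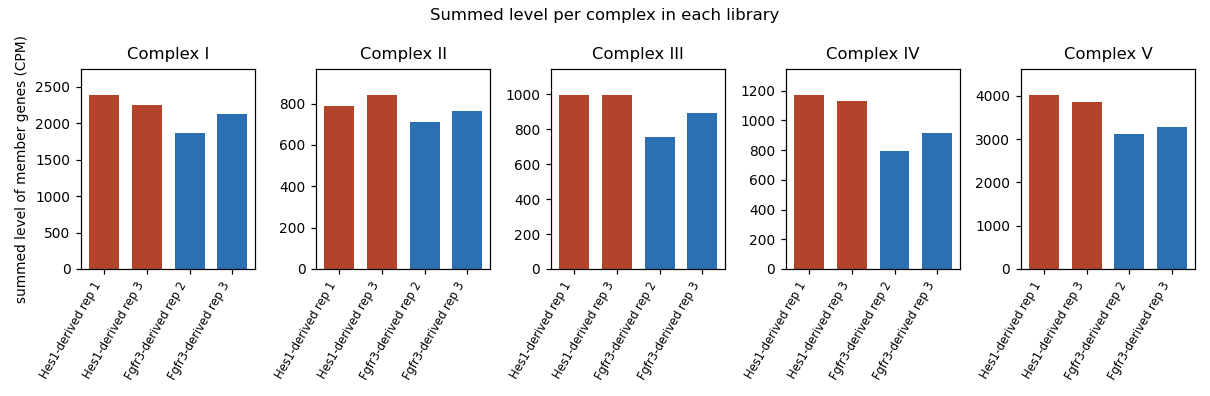
Summed level of the members of each complex in CPM, a bar per library, Hes1-derived in red and Fgfr3-derived in blue, each panel with its own axis from 0. In each of the 5 panels both Hes1-derived bars exceed both Fgfr3-derived bars and Fgfr3-derived replicate 2 is the lowest; complex V has the largest sums (4026 and 3869 CPM against 3109 and 3273 CPM).

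Complex I takes electrons from NADH on its matrix arm and pumps protons through its membrane arm. Its 37 rows summed to 2393 and 2258 CPM in Hes1-derived libraries and to 1869 and 2133 CPM in Fgfr3-derived libraries, a ratio of 1.16. Of the 36 tested, 0 were called in either direction by edgeR, DESeq2, limma-voom or limma-trend, and 0 had an unadjusted p under 0.05. Of all genes, edgeR called 5.24% higher and 6.56% lower, and DESeq2 9.97% and 10.9%. The shares were 6.23% and 7.33% in limma-voom, 5.79% and 6.59% in limma-trend, and 13.7% and 16.3% at the unadjusted p. Both Hes1-derived libraries lay above both Fgfr3-derived libraries for 17 of the 36, beside 29.8% of all genes. For 1 both lay below, beside 32.1%, and 18 overlapped. The fold changes ran from −0.52 to 0.54, 27 of them positive. The medians of the 7 core subunits (0.26), the 9 accessory subunits of the matrix arm (0.26) and the 18 tested accessory subunits of the membrane arm (0.26) lay within 0.01 of each other. Ndufv1, the core subunit that binds NADH, had 193 and 146 CPM in Hes1-derived libraries, against 127 and 147 CPM. The groups overlapped, since Hes1-derived replicate 3 lay just below Fgfr3-derived replicate 3.

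The largest positive difference in complex I was that of Ndufb7, an accessory subunit of the membrane arm. It had 74.6 and 72.9 CPM in Hes1-derived libraries, against 38.1 and 63.5 CPM in Fgfr3-derived libraries (log2 fold change 0.54 ± 0.28, edgeR adjusted p = 0.242). The groups did not overlap, and Fgfr3-derived replicate 2 stood apart as the low library. Without Fgfr3-derived replicate 3 the fold change was 1.00 with an adjusted p of 0.0390, and over all alternatives its adjusted p ran from 0.0390 to 0.637. Ndufs5, an accessory subunit on the intermembrane side, had 1 and 4 reads in Hes1-derived libraries, against 1 and 2 reads in Fgfr3-derived libraries and was not tested. Its processed pseudogene copy in the annotation is 99.4% identical over the coding sequence. How reads shared with it were counted is not given in the sources used here, and no comparison is drawn from the Ndufs5 row.

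Ndufa4 and Ndufa4l2 are named for complex I, but the NDUFA4 protein is now assigned to complex IV. Ndufa4l2 is its paralog, known as a hypoxia-inducible gene that lowers complex I activity and is a marker of pericytes. Ndufa4 had 97.6 and 102 CPM in Hes1-derived libraries, against 103 and 84.9 CPM in Fgfr3-derived libraries, with overlap and a log2 fold change of 0.09. Ndufa4l2 had 4.93 and 8.95 CPM in Hes1-derived libraries, against 12.4 and 7.49 CPM in Fgfr3-derived libraries. These overlapped as well (log2 fold change −0.52 ± 0.44, edgeR adjusted p = 0.478), and each group's spread was wider than the difference between the groups. The gene overlaps Shmt2 on the opposite strand in the annotation, and whether reads were counted by strand is not given in the sources used here.

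Complex II, succinate dehydrogenase, is also an enzyme of the tricarboxylic acid cycle and has no mitochondrially encoded subunit. Its 4 genes summed to 788 and 843 CPM in Hes1-derived libraries and to 711 and 766 CPM in Fgfr3-derived libraries, a ratio of 1.10 and the smallest among the complexes. By edgeR, DESeq2, limma-voom and limma-trend 0 were called in either direction, and 0 had an unadjusted p under 0.05. Of all genes, edgeR called 5.24% higher and 6.56% lower, DESeq2 9.97% and 10.9%, limma-voom 6.23% and 7.33%, and limma-trend 5.79% and 6.59%. At the unadjusted p the shares were 13.7% and 16.3%. Sdha, the flavoprotein that oxidises succinate, had 332 and 372 CPM in Hes1-derived libraries, against 323 and 286 CPM. Sdhb, the iron-sulfur subunit, had 160 and 171 CPM, against 123 and 150 CPM in Fgfr3-derived libraries. In both genes the groups were separate, though the gap between them was narrow. Sdhc, a membrane anchor subunit, had 110 and 108 CPM in Hes1-derived libraries, against 106 and 125 CPM in Fgfr3-derived libraries. Sdhd, the other anchor, had 186 and 192 CPM in Hes1-derived libraries, against 160 and 205 CPM in Fgfr3-derived libraries. The anchors overlapped between the groups, at log2 fold changes of −0.08 for Sdhc and 0.05 for Sdhd, and both changed sign with the libraries or the scaling used.

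Complex III, the cytochrome bc1 complex, had 8 genes. They summed to 998 and 997 CPM in Hes1-derived libraries and to 753 and 892 CPM in Fgfr3-derived libraries, a ratio of 1.21. For 7 of the 8 both Hes1-derived libraries lay above both Fgfr3-derived libraries, beside 29.8% of all genes. By edgeR, DESeq2, limma-voom and limma-trend 0 were called in either direction, and 0 had an unadjusted p under 0.05. Among all genes the shares called higher and lower were 5.24% and 6.56% in edgeR and 9.97% and 10.9% in DESeq2. They were 6.23% and 7.33% in limma-voom, 5.79% and 6.59% in limma-trend, and 13.7% and 16.3% at the unadjusted p. Uqcrc1, a core protein, had 517 and 515 CPM in Hes1-derived libraries, against 359 and 468 CPM. Uqcrc2, the other core protein, had 119 and 118 CPM, against 99.1 and 113 CPM in Fgfr3-derived libraries. Uqcrfs1, the Rieske iron-sulfur protein, had 116 and 127 CPM in Hes1-derived libraries, against 95.7 and 97.2 CPM. In all 3 genes both Hes1-derived libraries were the higher ones, with log2 fold changes of 0.32 for Uqcrc1, 0.16 for Uqcrc2 and 0.34 for Uqcrfs1. Uqcrh, the hinge protein that helps bind cytochrome c1 to cytochrome c, had 54.2 and 45.5 CPM in Hes1-derived libraries, against 35.7 and 39.1 CPM in Fgfr3-derived libraries (0.41 ± 0.22, edgeR adjusted p = 0.254).

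Complex IV, cytochrome c oxidase, had the largest ratio of sums and the widest spread. Its 16 rows summed to 1173 and 1128 CPM in Hes1-derived libraries and to 796 and 912 CPM in Fgfr3-derived libraries, a ratio of 1.35. Of the 15 tested, 1 was higher and 0 lower by edgeR, beside 5.24% and 6.56% of all genes. At an unadjusted p under 0.05, 7 were higher and 1 lower, beside 13.7% and 16.3% of all genes. DESeq2 called 3 higher and 1 lower, beside 9.97% and 10.9% of all genes. Both limma-voom and limma-trend called 2 higher and 0 lower. The shares of all genes were 6.23% and 7.33% in limma-voom and 5.79% and 6.59% in limma-trend. The 10 ubiquitous forms and single genes had a median log2 fold change of 0.47. For 9 of them both Hes1-derived libraries exceeded both Fgfr3-derived libraries, beside 29.8% of all genes.

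Cox7b was the complex IV subunit that edgeR called higher in Hes1-derived libraries. COX7B is a small subunit that human cells need to assemble the enzyme. The gene had 65.0 and 70.5 CPM in Hes1-derived libraries, against 32.2 and 31.0 CPM in Fgfr3-derived libraries. Both Hes1-derived libraries were high and each group was tight (log2 fold change 1.10 ± 0.21 (SE), edgeR adjusted p = 0.0239). The call held in 11 of 15 alternatives and the fold change was positive in all 15, at 1.04 to 1.98, with adjusted p from 0.000360 to 0.120. It was lost when libraries were scaled to stroma markers or to eGFP, and without Hes1-derived replicate 3 or Fgfr3-derived replicate 2. Cox7b is on the X chromosome, and Fgfr3-derived replicate 3 had 0.153 CPM of Xist, the RNA of the inactive X chromosome, where Fgfr3-derived replicate 2 had 50.5 CPM and the Hes1-derived libraries 52.4 and 55.4 CPM. The part of X-linked dosage in the Cox7b difference was not tested. The annotation holds 2 processed pseudogene copies of Cox7b, the closer one 96.7% identical to its coding sequence, so the split of reads among them is uncertain.

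Other ubiquitous subunits had smaller differences. Cox4i1, the usual form of the largest nuclear subunit, had 238 and 227 CPM in Hes1-derived libraries, against 156 and 186 CPM (log2 fold change 0.45 ± 0.21, edgeR adjusted p = 0.201). Its locus overlaps Emc8, which the files list as Cox4nb. Cox4nb matched the naming rule but encodes no respiratory protein, and had 67.3 and 59.0 CPM in Hes1-derived libraries, against 60.1 and 67.3 CPM in Fgfr3-derived libraries. Cox6a1 had 187 and 164 CPM in Hes1-derived libraries, against 112 and 133 CPM (0.52 ± 0.21, edgeR adjusted p = 0.144). Cox6b1 had 88.1 and 85.9 CPM, against 60.5 and 74.0 CPM in Fgfr3-derived libraries (0.37 ± 0.21, edgeR adjusted p = 0.283). For these 3 subunit genes the Hes1-derived libraries were above without overlap, and none passed the threshold. Cox7a2 and Cox8a, further ubiquitous small subunits, followed the same order. Cox7a2 had 63.0 and 63.2 CPM in Hes1-derived libraries, against 38.9 and 44.7 CPM in Fgfr3-derived libraries (0.59 ± 0.21, edgeR adjusted p = 0.105). Cox8a had 113 and 99.2 CPM in Hes1-derived libraries, against 71.9 and 78.9 CPM in Fgfr3-derived libraries (0.49 ± 0.20, edgeR adjusted p = 0.153). Cox7a2l, a factor that joins complexes III and IV into supercomplexes, had 59.3 and 66.5 CPM in Hes1-derived libraries, against 40.8 and 56.0 CPM in Fgfr3-derived libraries.

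The tissue forms of complex IV were scarce, and the 3 that could be tested had larger fold changes, in either direction, than Cox7b. Cox4i2, known from lung, pericytes and oxygen sensing, had 2.42 and 2.94 CPM in Hes1-derived libraries, against 9.54 and 6.65 CPM in Fgfr3-derived libraries. It was low in both Hes1-derived libraries, with no overlap (log2 fold change −1.59 ± 0.42, edgeR adjusted p = 0.0507), and past the threshold in 2 of 15 alternatives, over which adjusted p ran from 0.0112 to 0.611. Scaled to stroma markers or eGFP, its fold change was −0.85 or −0.66. Cox6a2, the heart and skeletal muscle form, had 4.22 and 3.43 CPM in Hes1-derived libraries, against 0.710 and 1.38 CPM (1.87 ± 0.57, edgeR adjusted p = 0.0766). It was high in both Hes1-derived libraries. Cox6a2 overlaps Itgad, a leukocyte integrin gene, on the opposite strand, and the Itgad row had 4.22 and 3.63 CPM in Hes1-derived libraries, against 2.40 and 0.994 CPM in Fgfr3-derived libraries, so without strand their reads cannot be told apart. Cox6b2, the testis form, had 10.0 and 8.38 CPM in Hes1-derived libraries, against 3.90 and 2.79 CPM (1.46 ± 0.39, edgeR adjusted p = 0.0546). It was high in both Hes1-derived libraries and past the threshold in 7 of 15 alternatives, with adjusted p from 0.00925 to 0.161. Cox7a1, the heart and muscle form, had 5 and 6 reads in Hes1-derived libraries, against 6 and 4 reads in Fgfr3-derived libraries, and was not tested.

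**Figure D3:**
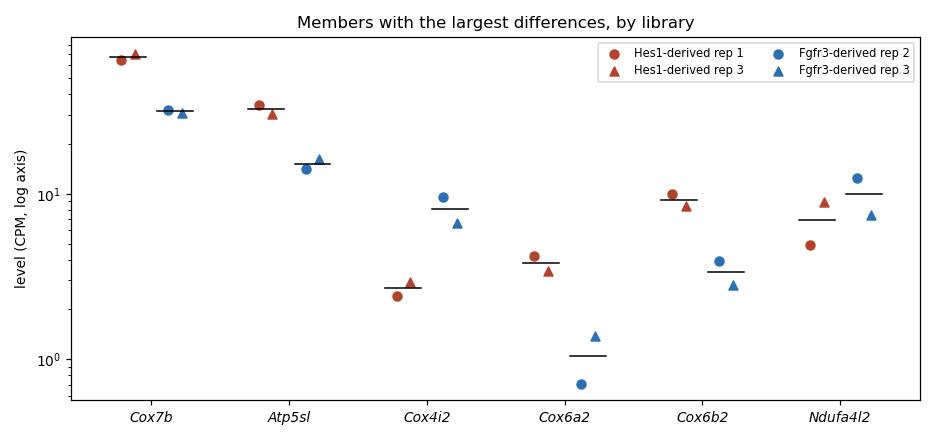
Level in CPM (log axis) of the 6 members named in the panel, with circles and triangles for the libraries, Hes1-derived in red on the left and Fgfr3-derived in blue on the right of each gene, and black lines for group means. Cox7b, Atp5sl, Cox6a2 and Cox6b2 lie higher in both Hes1-derived libraries and Cox4i2 lower, while Ndufa4l2 overlaps.

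Within each isoform pair the tissue form was the minor part of the reads in every library. The shares are of reads, without correction for transcript length, so they compare libraries and not the amounts of the forms. Cox4i2 made up 1.00% of Cox4i1 and Cox4i2 reads in Hes1-derived replicate 1 (exact 95% interval 0.758 to 1.31%) and 1.28% in replicate 3 (1.00 to 1.61%). In Fgfr3-derived replicates 2 and 3 it made up 5.78% (5.09 to 6.53%) and 3.46% (2.97 to 3.997%). Those intervals, which cover counting error only, did not meet between the groups, and the Fgfr3-derived libraries also differed from each other. Cox6b2 made up 10.2 and 8.89% of its pair in Hes1-derived libraries, against 6.06 and 3.63% in Fgfr3-derived libraries. Cox6a2 made up 2.203 and 2.045% of its pair in Hes1-derived libraries, against 0.630 and 1.03%. The share of Cox4i2 was thus lower, and the shares of Cox6b2 and Cox6a2 higher, in both Hes1-derived libraries. These shares do not depend on how the libraries are scaled. They can still depend on the mix of cells in a library, and its part was not tested. The Cox6a2 share also carries the overlap with Itgad, whose reads cannot be told apart from those of Cox6a2 without strand. Ndufa4l2 made up 4.80 and 8.07% of its pair in Hes1-derived libraries, against 10.8 and 8.11% in Fgfr3-derived libraries, where Hes1-derived replicate 3 and Fgfr3-derived replicate 3 were nearly equal.

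**Figure D4:**
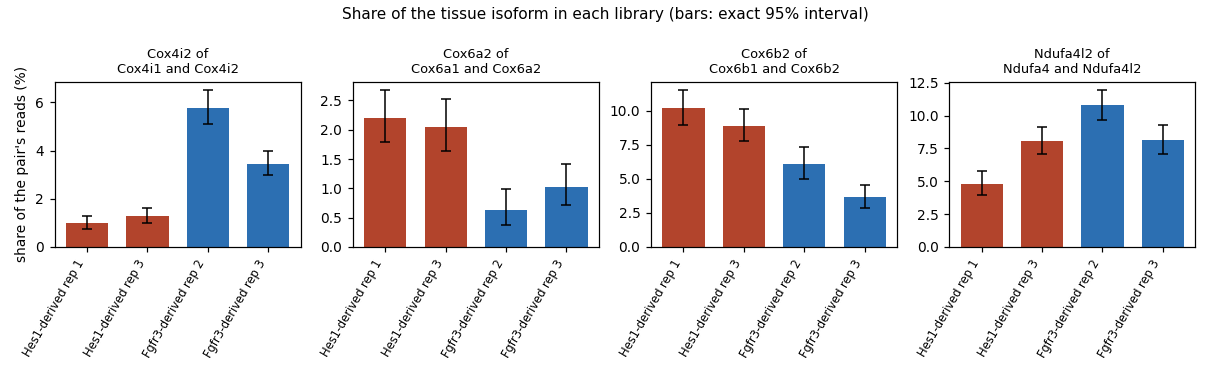
Share of the tissue or paralog form among the reads of its pair, in percent, a bar per library with its exact 95% interval for counting error; Hes1-derived libraries are red and Fgfr3-derived libraries blue. Cox4i2 is lowest in the Hes1-derived libraries (1.00 and 1.28% against 5.78 and 3.46%), Cox6a2 and Cox6b2 are highest there, and Ndufa4l2 shows no separation. Reads of Cox6a2 and of Itgad on the opposite strand cannot be told apart without strand.

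Complex V, the ATP synthase, has a catalytic head, a peripheral stalk and a membrane part with a ring of c subunits. Its 17 rows summed to 4026 and 3869 CPM in Hes1-derived libraries and to 3109 and 3273 CPM in Fgfr3-derived libraries, a ratio of 1.24. By edgeR 1 of 17 was higher, Atp5sl, and 0 were lower, beside 5.24% and 6.56% of all genes. At an unadjusted p under 0.05 and by DESeq2, limma-voom and limma-trend, 1 was higher and 0 were lower as well. Of all genes, 13.7% were higher and 16.3% lower at the unadjusted p, and 9.97% and 10.9% in DESeq2. The shares were 6.23% and 7.33% in limma-voom and 5.79% and 6.59% in limma-trend. Both Hes1-derived libraries lay above both Fgfr3-derived libraries for 11 of the 17, beside 29.8% of all genes, and 6 overlapped. The median log2 fold change was 0.33 for the 5 genes of the catalytic head, 0.22 for the 4 of the peripheral stalk and 0.37 for the 3 other genes of the membrane part. Atp5b, the catalytic beta subunit and the most abundant member, had 1566 and 1456 CPM in Hes1-derived libraries, against 1143 and 1172 CPM (0.39 ± 0.26, edgeR adjusted p = 0.372). Atp5a1, the alpha subunit, had 931 and 914 CPM, against 717 and 746 CPM in Fgfr3-derived libraries (0.33 ± 0.24, edgeR adjusted p = 0.401). Both were above without overlap and below the threshold for a call. Atp5j2, subunit f of the membrane part, had 54.7 and 50.3 CPM in Hes1-derived libraries, against 35.0 and 44.0 CPM (0.41 ± 0.22, edgeR adjusted p = 0.267).

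Atp5g1, Atp5g2 and Atp5g3 encode the same mature c subunit behind different targeting sequences. Atp5g1 had 96.8 and 103 CPM in Hes1-derived libraries, against 75.1 and 85.2 CPM in Fgfr3-derived libraries. Atp5g2 had 46.4 and 45.1 CPM in Hes1-derived libraries, against 37.1 and 35.5 CPM in Fgfr3-derived libraries. These genes were above in both Hes1-derived libraries, whereas Atp5g3 overlapped, at 166 and 167 CPM in Hes1-derived libraries, against 173 and 142 CPM in Fgfr3-derived libraries. Atp5g3 had the largest share of the counted c subunit reads in all 4 libraries, with 53.6 and 53.0% in Hes1-derived libraries, against 60.6 and 54.1% in Fgfr3-derived libraries, Fgfr3-derived replicate 2 standing above the rest. The annotation holds 1 pseudogene copy of Atp5g1 (99.8% identical) and 2 of Atp5g2 (up to 100%), but 0 near-identical copies of Atp5g3. How reads shared with copies were counted is not given, so these levels and shares are uncertain as isoform proportions.

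Atp5sl was called higher in Hes1-derived libraries but is no part of the ATP synthase. Its present name is Dmac2, and in human cells the protein takes part in assembling the far end of the membrane arm of complex I. It had 34.6 and 30.3 CPM in Hes1-derived libraries, against 14.2 and 16.3 CPM in Fgfr3-derived libraries. Both Hes1-derived libraries were high (log2 fold change 1.09 ± 0.25, edgeR adjusted p = 0.0352). The call held in 10 of 15 alternatives and the fold change was positive in all 15, with adjusted p from 0.00294 to 0.136. It was lost under scaling to stroma markers or eGFP, and without Hes1-derived replicate 1, Hes1-derived replicate 3 or Fgfr3-derived replicate 2. Atp5s, another row that encodes a coupling factor and no subunit, had 13.8 and 9.23 CPM in Hes1-derived libraries, against 17.2 and 12.2 CPM in Fgfr3-derived libraries, with overlap. With Cox4nb and Cox7a2l, 4 of the 82 rows were classed as encoding no structural subunit. Ndufa4l2, the paralog of Ndufa4, was kept among the subunits.

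Levels of different genes can be set side by side only per length. Per kilobase of transcript, as a mean over groups, Atp5b stood highest at 696 CPM per kilobase, followed by Atp5a1 at 335, Uqcrc1 at 281, Cox4i1 at 271 and Cox6a1 at 261 CPM per kilobase. Atp5b lay apart from the next gene in both groups, with 789 CPM per kilobase in Hes1-derived and 604 in Fgfr3-derived libraries. At the low end came Ndufs5 at 0.153, Cox7a1 at 0.439, Cox6a2 at 3.58, Cox4i2 at 7.41, Atp5s at 8.83 and Ndufa4l2 at 9.04 CPM per kilobase. Cox6b2 stood at 23.5 CPM per kilobase in Hes1-derived and 8.56 in Fgfr3-derived libraries.

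Promoters are shown for the members called higher by edgeR and, to set isoforms side by side, for Cox6b2 and Cox6b1 of complex IV. Cox6a1 is shown as well, but its tissue form Cox6a2 had no promoter sequence to set beside it. The sequences are from RefSeq on build GRCm38.p6, 250 bases before to 50 after the start. The annotation gives Atp5sl a pair of starts, of which the upstream one is shown. Capitals mark matches on either strand to GCGCANGCG (the NRF1 motif), CCGGAAG (an ETS motif, bound by the GABP factor) and AAGATGGCG (a YY1 motif), factors known to act on respiratory genes.

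Cox7b, chrX:106015450-106015749, plus strand: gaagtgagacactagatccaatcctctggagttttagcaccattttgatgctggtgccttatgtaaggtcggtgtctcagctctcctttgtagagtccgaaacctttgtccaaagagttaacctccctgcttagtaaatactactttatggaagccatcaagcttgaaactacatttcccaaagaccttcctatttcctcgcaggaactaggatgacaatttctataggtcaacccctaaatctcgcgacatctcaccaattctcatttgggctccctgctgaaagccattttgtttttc

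Atp5sl, chr7:25619164-25619463, plus strand: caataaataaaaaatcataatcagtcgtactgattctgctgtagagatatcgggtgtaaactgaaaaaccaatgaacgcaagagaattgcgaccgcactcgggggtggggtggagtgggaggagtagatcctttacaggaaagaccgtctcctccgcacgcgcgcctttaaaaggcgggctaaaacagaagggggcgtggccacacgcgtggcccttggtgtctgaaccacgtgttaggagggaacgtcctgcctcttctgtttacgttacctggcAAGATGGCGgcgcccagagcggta

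Cox6a1, chr5:115348909-115349208, minus strand: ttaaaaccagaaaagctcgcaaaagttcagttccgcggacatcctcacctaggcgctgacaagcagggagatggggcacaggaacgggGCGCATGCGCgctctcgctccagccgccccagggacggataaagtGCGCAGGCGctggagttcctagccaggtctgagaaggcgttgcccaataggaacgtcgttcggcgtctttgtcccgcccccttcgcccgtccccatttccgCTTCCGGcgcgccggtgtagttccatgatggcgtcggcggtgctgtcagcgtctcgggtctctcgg

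Cox6b2, chr7:4753045-4753344, minus strand: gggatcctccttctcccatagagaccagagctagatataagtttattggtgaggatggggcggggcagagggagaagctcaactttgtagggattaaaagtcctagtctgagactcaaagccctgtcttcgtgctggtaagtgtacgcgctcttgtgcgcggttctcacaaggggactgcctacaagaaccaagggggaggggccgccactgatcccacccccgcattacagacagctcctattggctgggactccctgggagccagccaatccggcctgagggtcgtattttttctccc

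Cox6b1, chr7:30626065-30626364, minus strand: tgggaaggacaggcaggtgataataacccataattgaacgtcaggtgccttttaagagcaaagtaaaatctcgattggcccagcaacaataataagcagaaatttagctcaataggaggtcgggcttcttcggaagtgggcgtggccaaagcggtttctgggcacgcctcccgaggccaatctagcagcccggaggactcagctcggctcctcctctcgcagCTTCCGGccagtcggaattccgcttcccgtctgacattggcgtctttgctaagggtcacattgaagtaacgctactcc

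In these windows Cox7b and Cox6b2 held none of the 3 motifs, which says only that these letters are absent there. Atp5sl held AAGATGGCG just after its start, Cox6a1 held the NRF1 motif in overlapping and separate matches on both strands and an ETS match, and Cox6b1 held an ETS match. Cox7b had 43.3% G and C and 5 CpG sites in its window, and Cox6a1 63.0% and 32 sites. The promoters of 67 of the 82 members were in the table, 73 promoters in all. Windows of a gene with several starts can overlap, so the counts are of windows and not of separate sites. An NRF1 match of Ndufa5 and the YY1 match of Atp5sl were each counted more than once. The NRF1 motif was in 21 of the 73 (28.8%), against 6.25% of 32851 mouse promoters of the same length. The ETS motif was in 16 (21.9%, against 8.86%) and the YY1 motif in 9 (12.3%, against 1.40%). A match is a description of letters and was not linked to any level measured here.

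Other genes of mitochondrial energy metabolism gave no call by edgeR in either direction, where it called 5.24% of all genes higher and 6.56% lower. Beside the counts in this and the next paragraph, 13.7% of all genes were higher and 16.3% lower at an unadjusted p under 0.05. DESeq2 called 9.97% of all genes higher and 10.9% lower. Of 10 chain genes outside the naming rule, the median log2 fold change was 0.15, 1 was higher at an unadjusted p under 0.05, and DESeq2 called 1, Atpif1. Cycs, cytochrome c, had 145 and 182 CPM in Hes1-derived libraries, against 151 and 168 CPM in Fgfr3-derived libraries. Of 47 tested assembly factors, the median was 0.03, with 1 higher and 1 lower at an unadjusted p under 0.05 and 0 called by DESeq2. The most abundant, 6330578E17Rik, had 89.0 and 88.4 CPM in Hes1-derived libraries, against 92.9 and 76.8 CPM in Fgfr3-derived libraries, with overlap.

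Of 18 genes of the tricarboxylic acid cycle, which feeds NADH and succinate to the chain, the median was 0.11, with 2 higher and 1 lower at an unadjusted p under 0.05, and DESeq2 called 1 higher, Fh1. Mdh2, malate dehydrogenase, had 455 and 440 CPM in Hes1-derived libraries, against 340 and 494 CPM in Fgfr3-derived libraries, with overlap. The 22 glycolysis genes had a median of 0.18. At an unadjusted p under 0.05, 0 were higher and 5 lower, beside 13.7% and 16.3% of all genes. DESeq2 called 2 lower, Hk2 and Eno2, where it called 10.9% of all genes lower. Pkm2, the pyruvate kinase row, had 1235 and 1432 CPM in Hes1-derived libraries, against 714 and 1198 CPM in Fgfr3-derived libraries. The 16 regulators of mitochondrial biogenesis had a median of 0.14, with 1 higher and 1 lower at an unadjusted p under 0.05 and 0 called by DESeq2. Nrf1, the factor named for the first of the promoter motifs, had 117 and 111 CPM in Hes1-derived libraries, against 79.7 and 76.9 CPM (0.54 ± 0.19, edgeR adjusted p = 0.111). Both Hes1-derived libraries were above without overlap. The 21 genes of protein import had a median of 0.10, with 0 called by edgeR or DESeq2 and 0 at an unadjusted p under 0.05. Hspd1, the matrix chaperone, had 193 and 253 CPM in Hes1-derived libraries, against 245 and 249 CPM in Fgfr3-derived libraries. In limma-voom and limma-trend 0 genes of these lists were called. The shares of all genes called higher and lower were 6.23% and 7.33% in limma-voom and 5.79% and 6.59% in limma-trend. The members' median of 0.28 was above each of these medians, and the difference was not tested.

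The median depended on what the libraries were scaled to. When scaled so that the 14 stroma markers had equal mean log levels, the members' median was 0.90 and that of all genes 0.64. When scaled to eGFP, the transcript of the Cxcl12 reporter at 6669 and 3204 CPM in Hes1-derived libraries, against 9264 and 6754 CPM in Fgfr3-derived libraries, the medians were 1.11 and 0.83. The distance between members and all genes was 0.26 and 0.28 under these scalings, beside 0.30 as first given. It was 0.15 without Fgfr3-derived replicate 2 and 0.40 without Fgfr3-derived replicate 3, the lowest and highest values among the choices tried.

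**Figure D5:**
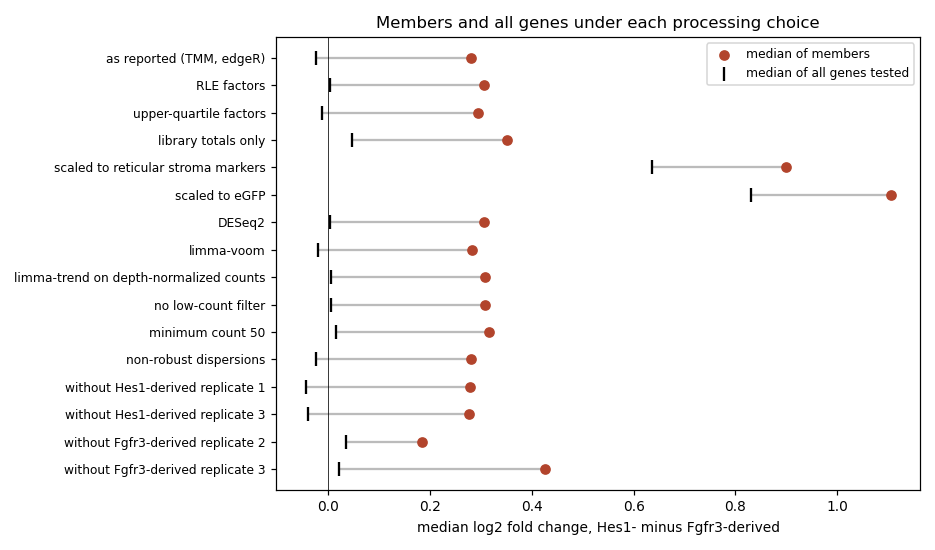
Median log2 fold change, Hes1-derived minus Fgfr3-derived, of the 80 tested members (red points) and of all genes tested (black ticks) under each processing choice, joined by a line. The members lie above all genes on every line, closest without Fgfr3-derived replicate 2 (0.18 against 0.03).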

How the data were processed

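Raw counts per gene symbol, deposited by the authors for 4 bulk libraries, were used for all main tests. Build mm10 and the tools HTSeq, DESeq2, TopHat2 2.0.13, Bowtie2 2.2.1, FastQC, Cuffdiff and Cufflinks are named in the submitters' processing notes, without role or order. The annotation and strand setting are not given in the sources used here. A deposited signal table holds these counts divided by a size factor per library, by its values, and was used for limma-trend with a pseudocount of 1. A deposited table of regularized log2 values, so named by the authors, was used for description.

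Genes were filtered with filterByExpr (minimum count 10), which kept 14330 of 17230 rows, scaled with TMM factors and tested with edgeR 4.0.16 (robust quasi-likelihood test, Benjamini-Hochberg adjustment over all genes tested, threshold 0.05), with all 4 libraries and no covariate. The biological coefficient of variation was 27.8% with 2 residual degrees of freedom. CPM used TMM-adjusted library sizes, so summed CPM are not exact shares of reads. Depth was 22745128 to 26804832 counts per library. Levels per kilobase used the shortest transcript with the longest coding sequence. Alternatives used DESeq2 1.42.0 and limma 3.58.1, other scalings and filters, and each library left out in turn. Near-identical copies were found with blastn 2.17.0 (95% identity over 80% of the coding sequence): 20 members had a copy and 27 overlapped a gene on the opposite strand. The test was checked on simulated data.

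Text names each called member, the 2 most abundant and the 2 most changed per complex, all tissue isoform sets, all Sdh genes, and the most abundant gene of each other pathway list; the 2 most abundant markers of each cell type list, which the rule also names, are covered by the summed levels, with none named singly; Cox7b2, Cox8b and Cox8c had no row. A member that this rule names is not reported here. Atpif1, Fh1, Hk2 and Eno2 were named after their values were seen, as were Cox4nb, Atp5s and Ndufs5. The members and lists were chosen with earlier results of these data known. Of the 227 list entries, 2 had no row and 19 matched by another symbol. The 0 rows found for mitochondrial ribosomal proteins and for mitochondrially encoded genes leave those genes not analysed here.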

Additional observations from a re-analysis of the deposited data

How the results depend on the processing

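RLE and upper-quartile factors and non-robust dispersions moved no count of calls by more than 1.5 times, nor did library totals, limma-voom, limma-trend or the absence of a filter. Higher calls were 44.4% of all calls as reported, 90.6% when scaled to stroma markers and 94.5% when scaled to eGFP. Scaled to stroma markers, 74 genes were lower, 1 member was higher and the members' median log2 fold change was 0.90. Scaled to eGFP, 324 genes were higher and 19 lower, 0 members were higher and the median was 1.11. DESeq2 called 1429 genes higher and 1557 lower, 4 members higher and 1 lower. At adjusted p under 0.10, 1411 genes were higher and 1664 lower, with 4 members higher and 1 lower. A minimum count of 50 gave 1 member lower (Cox4i2). Keeping structural subunits left 1 member higher because Atp5sl drops out, and leaving out members with near-identical copies left 1 because Cox7b does. With each library left out in turn, the lone sample of a group being assumed to vary like the others, 183 to 1225 genes were higher, 181 to 998 lower, 0 to 3 members were higher, the members' median was 0.18 to 0.42, and its distance to all genes 0.15 to 0.40; the cause was not tested. Of 30 named members tested, 26 kept their direction throughout. Ndufa4l2 turned positive when scaled to stroma markers (0.30) or eGFP (0.52), as did Sdhc (0.54 and 0.75). With each library left out, Sdhc ran from −0.177 to 0.091 and Atp5g3 from −0.007 to 0.241, each extreme without an Fgfr3-derived library, and Sdhd from −0.097 to 0.287. No paired analysis was possible because the groups share only replicate number 3. With 2 libraries a group, an exact permutation test could give no p below 0.333. Rows under 10 reads, Cox7a1 and Ndufs5, were below what this depth can compare.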

Other observations

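Among genes of energy metabolism outside the respiratory complexes, those with an unadjusted p under 0.05 are given as values and were named after these were seen. None passed the adjusted threshold in edgeR. Of the glycolysis list, Hk2, a hexokinase, had 23.1 and 27.2 CPM in Hes1-derived libraries, against 58.2 and 39.9 CPM in Fgfr3-derived libraries (edgeR adjusted p = 0.0587). Ldhb, a lactate dehydrogenase subunit, had 83.1 and 69.3 CPM in Hes1-derived libraries, against 125 and 114 CPM in Fgfr3-derived libraries (edgeR adjusted p = 0.0851). Pfkl, Pfkfb3 and Eno2 had negative log2 fold changes of −0.54, −0.64 and −1.57. In each of these 5 genes both Hes1-derived libraries lay below both Fgfr3-derived libraries, as in 32.1% of all genes. Since the genes were picked by a small p, this separation follows largely from the choice and adds no support.

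Atpif1, the inhibitor of ATP synthase reversal, had 150 and 112 CPM in Hes1-derived libraries, against 55.8 and 90.0 CPM in Fgfr3-derived libraries (edgeR adjusted p = 0.0989). Of the tricarboxylic acid cycle, Fh1, fumarase, had 109 and 86.2 CPM in Hes1-derived libraries, against 59.5 and 59.7 CPM in Fgfr3-derived libraries (edgeR adjusted p = 0.0728). Idh3g had a log2 fold change of 0.60 and Sucla2 of −0.52. Of the assembly factors, Ttc19, which acts on complex III, had 15.2 and 13.9 CPM in Hes1-derived libraries, against 26.4 and 23.6 CPM in Fgfr3-derived libraries. Cox17, the copper chaperone of complex IV, had 19.4 and 20.4 CPM in Hes1-derived libraries, against 10.8 and 13.3 CPM in Fgfr3-derived libraries. Of the biogenesis regulators, Pprc1, a coactivator, had 27.4 and 33.2 CPM in Hes1-derived libraries, against 45.5 and 55.5 CPM in Fgfr3-derived libraries. In these genes the groups did not overlap, which again follows largely from choosing them by a small p.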
